A study of Mus musculus with 9 samples.

Results

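The genes of the constitutive proteasome were followed in RNA sequencing of sorted mouse cells that the labels name retinal ganglion cells, a type that sends its axons through the optic nerve to the brain. The members were the genes of the deposited table whose symbols begin with Psma to Psmg and a number. The immunoproteasome genes Psmb8, Psmb9, Psmb10, Psme1 and Psme2 were left out, and at least 10 counts were required in at least 3 of the 9 libraries. Of 24772 table entries, 50 matched the name pattern, 45 remained without the immunoproteasome genes, and 43 were members. Psma8 and Psme2b had no library with 10 counts and were not members. All 43 members also passed the expression filter of the test, which kept 15841 genes. By role, 14 members encode the core particle, 17 the regulatory particle and 12 other factors. The last 12 are 4 core assembly chaperones (Psmg1 to Psmg4), 3 base assembly chaperones (Psmd5, Psmd9 and Psmd10), the activators Psme3 and Psme4, the inhibitor Psmf1, the thymus core subunit Psmb11, and Psmc3ip. Psmc3ip matched by name only, since its product acts in meiotic recombination and is no proteasome subunit.

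The proteasome is the large protease that degrades proteins tagged with ubiquitin. Its core particle is a barrel of stacked alpha and beta rings, with the proteolytic sites of Psmb5, Psmb6 and Psmb7 facing the inner chamber. The regulatory particle caps the barrel: its base holds a ring of ATPases that unfold substrates and subunits that bind ubiquitin, and its lid removes the ubiquitin chain. Assembly chaperones build both particles, and the transcription factor Nfe2l1 (Nrf1) raises proteasome genes when proteasome activity is low. In neurons the proteasome takes part in protein turnover at synapses and along axons.

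Sorted cells of 3 groups were compared, with 3 libraries each per the labels. Ctrl was wild type with intact optic nerves, and ONC was wild type at day 3 after optic nerve crush, which cuts the axons. CKO was also at day 3 after crush and carried a conditional knockout of the zinc transporter ZnT3 in amacrine cells, the retinal interneurons. The labels used here name no Cre driver, strain, sex or age, and no intact knockout retina was among the samples. The labels do not say whether each library is a different animal. The p-values therefore reflect library-to-library spread, which may be technical.

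Total counts were 14166996 to 25571715 per library. The ONC columns of the table carry the numbers 3, 5 and 6, which cannot be matched to single labelled samples, and they are named by those numbers. Columns 3 and 6 were alike and column 5 stood apart: the squared difference between libraries was 3.23 times that of counting error (median over genes) for columns 3 and 6, 42.9 and 46.8 times for column 5 against either, and 11.4 to 14.98 times for pairs within Ctrl or CKO. The 2 like columns correlated at r = 0.992 over genes and still differed by more than counting error, so they were kept as separate libraries. Whether they come from separate samples is not given, and the n of 3 for ONC, or of 2 without column 5, may be overstated. The targeted gene Slc30a3 had 2, 10 and 16 counts in Ctrl, 0, 1 and 0 in columns 3, 5 and 6 of ONC, then 1, 4 and 2 in CKO, too few to check the knockout, which is moreover in another cell type than the one sorted. The 14 ganglion cell markers held 0.0106 to 0.0242% of counts over all libraries, with 0 to 3 of them at 0 in a library (Pou4f2 had a median of 0 CPM). The highest median among them was 61.1 CPM for Isl1, which is a marker of bipolar cells as well. The 15 rod markers held 8.32 to 8.47% in Ctrl, 9.29 to 10.2% in ONC and 9.08 to 9.35% in CKO, so the labelled cell type was weakly represented by its markers next to rods. Müller glia markers held 0.0559 to 0.0618% in Ctrl, 0.127, 0.075 and 0.124% in columns 3, 5 and 6 of ONC and 0.0872 to 0.0976% in CKO, and amacrine markers 0.0429 to 0.0499%, 0.0187 to 0.0216% and 0.0123 to 0.0143%. Pigment epithelium markers held 0.0347 to 0.0517% in Ctrl, 0.0114 to 0.0177% in ONC and 0.0116 to 0.0138% in CKO. That share was almost all Dct, at 113 to 516 CPM. The other pigment epithelium markers had medians of 0 to 0.469 CPM, and 2 to 4 of the 7 were at 0 in a library. The part of these shifts in the results below was not tested. In such bulk samples, fewer cells of a type and less RNA per cell cannot be told apart.

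Core particle genes were the most abundant members. Per kilobase of transcript, the 14 core genes had a median level of 281 CPM per kb over the 9 libraries (CPM, counts scaled to library size with TMM factors), with a range from 165 for Psma4 to 898 for Psmb6. The 17 regulatory genes had a median of 122 CPM per kb, from 9.01 for the lid subunit Psmd3 to 207 for the base ATPase Psmc6. The authors' FPKM values of Ctrl and CKO gave medians of 358 and 129 for core and regulatory genes. After Psmb6, the order by CPM per kb was Psmb2 at 696, Psmb3 at 397, Psma7 at 371 and Psma3 at 314. Length here was that of a gene's longest protein-coding transcript, 2846 bases for Psma3, and the order depends on that choice. Psma3 ranked 2 by the authors' FPKM, which implies a shorter gene length there. Chaperones, activators and Psmf1 lay below the core genes, at 9.15 to 89.7 CPM per kb and within the range of the regulatory genes, and the thymus subunit Psmb11 was at 0.313. All members together took 0.802 to 1.05% of the counts of a library.

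**Figure D1:**
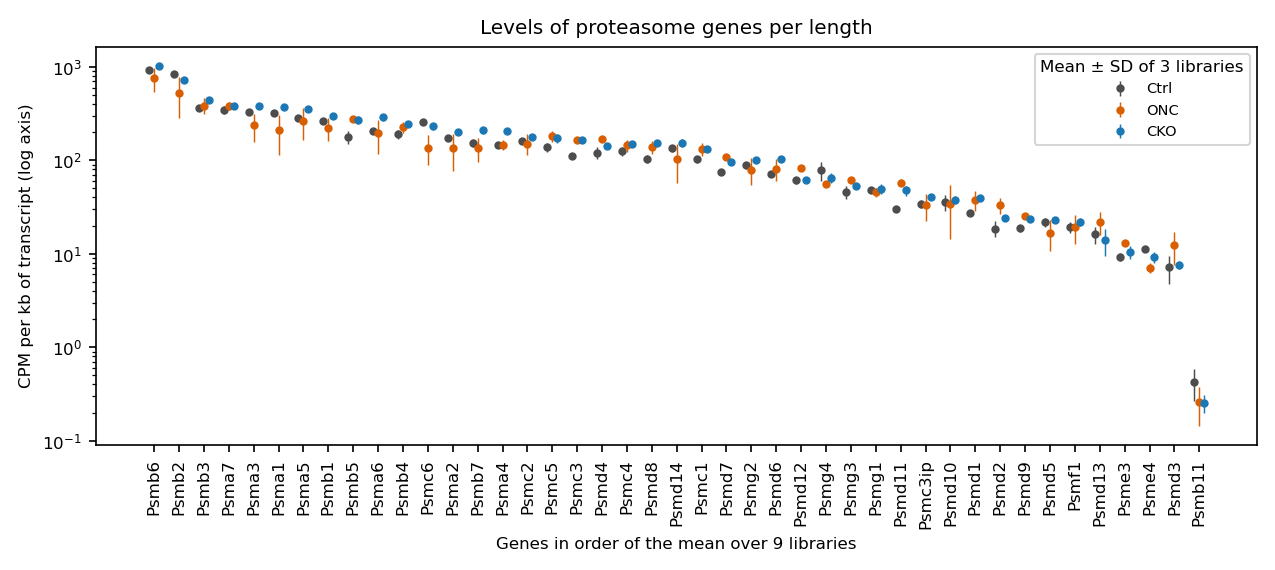
Level of each of the 43 members per kilobase of transcript (CPM per kb, log axis), as mean and SD of 3 libraries in Ctrl, ONC and CKO. Genes are in order of their mean over 9 libraries. By that mean, core ring genes sit between 165 and 898 CPM per kb, while Psmb11 is at 0.313.

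Promoter windows from RefSeq (GRCm38.p6, 250 bases before to 50 after the start) were at hand for 36 members in 38 windows. The letters TGACNNNGC, the core of the element that Nfe2l1 and its relatives bind, were searched on both strands. They occurred in 6 of 38 member windows (15.8%) and in 12.4% of all 32851 windows. The CCAAT box, letters CCAAT on either strand, occurred in 36.8% of member windows and 37.4% of all windows. A match describes letters only. Stretches are shown around the 5 matches that lie wholly before the start. These are in the catalytic subunits Psmb5 and Psmb6, the lid gene Psmd12, the chaperone gene Psmd9, and Psmc6. The match in Psme4 began at -7 and crossed the start, so it is not shown. Capitals mark the match, which lies on the opposite strand in Psmd12 and Psmc6, and each line reads 5′ to 3′ along the gene.

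Psmb5, chr14:54618014-54618062, minus strand: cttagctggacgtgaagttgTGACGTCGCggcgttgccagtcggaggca
Psmb6, chr11:70525328-70525356, plus strand: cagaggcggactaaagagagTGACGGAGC
Psmc6, chr14:45329577-45329625, plus strand: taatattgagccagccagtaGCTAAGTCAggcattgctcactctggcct
Psmd9, chr5:123228139-123228187, plus strand: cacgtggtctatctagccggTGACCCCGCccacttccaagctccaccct
Psmd12, chr11:107479278-107479309, plus strand: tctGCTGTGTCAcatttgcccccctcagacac

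The 2 particles had different patterns over the libraries. The core genes summed to 5570.2, 5687 and 6102 CPM in Ctrl, 4222, 6534 and 3993 CPM in columns 3, 5 and 6 of ONC, then 6642, 6856 and 6453 CPM in CKO. Core sums in columns 3 and 6 were thus below all Ctrl libraries and column 5 was above them, as was every CKO library. The regulatory genes summed to 2701, 2878 and 2861 CPM in Ctrl, 3049, 3603 and 2805 CPM in columns 3, 5 and 6 of ONC, then 3500, 3347 and 3229 CPM in CKO. The ratio of core to regulatory sums was 2.06, 1.98 and 2.13 in Ctrl, 1.38, 1.81 and 1.42 in the ONC columns and 1.90, 2.05 and 1.999 in CKO. All 3 ONC ratios lay below every Ctrl ratio.

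**Figure D2:**
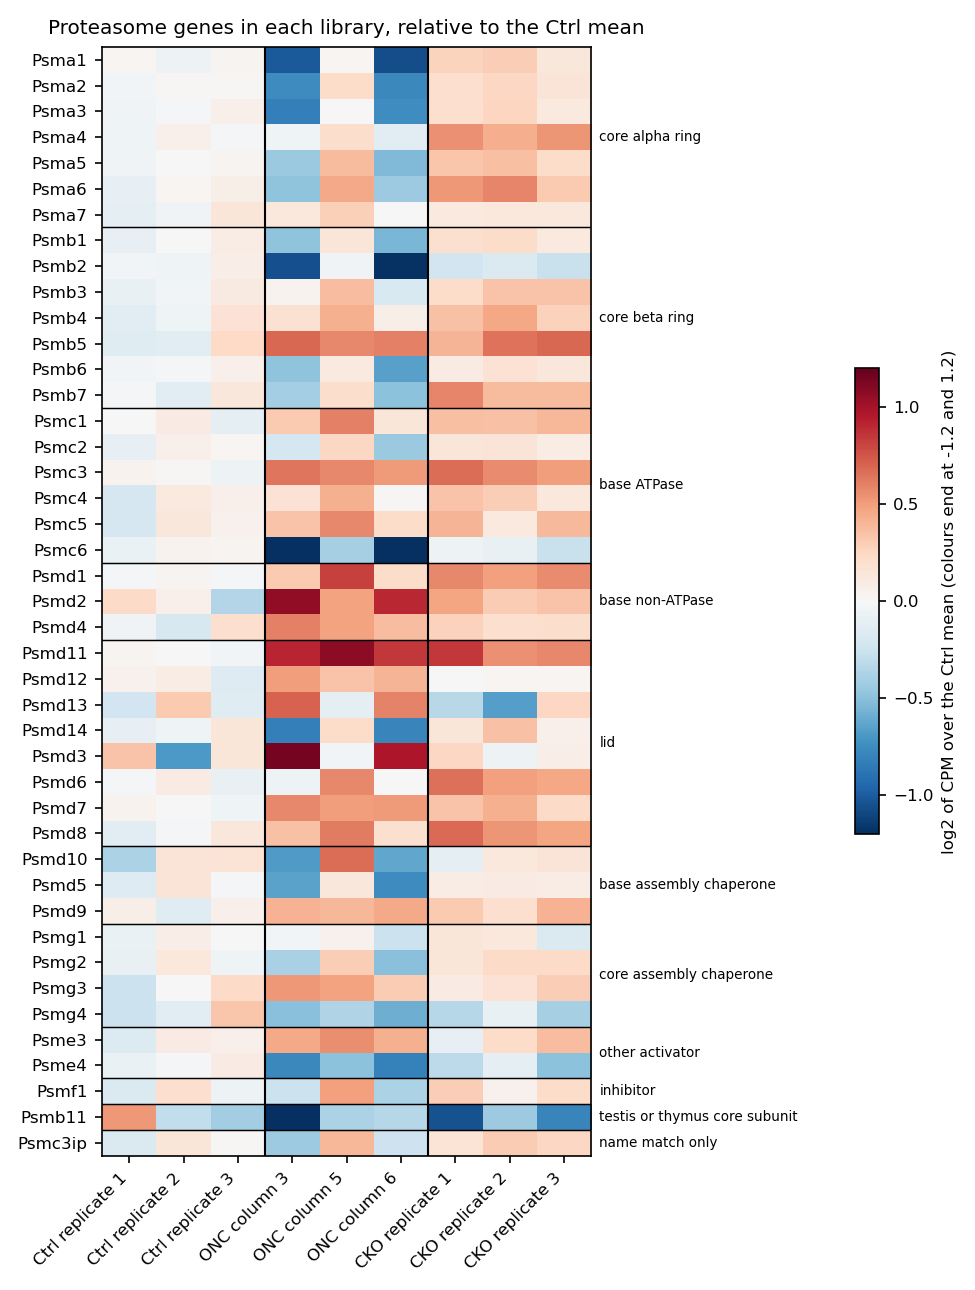
Heat map of the members: log2 of CPM in each of the 9 libraries over the Ctrl mean, ordered by role, with colours ending at the scale's limits. Core rings are mostly below Ctrl in ONC columns 3 and 6 and above it in column 5 and the CKO libraries.

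Gene by gene, column 5 was above the mean of columns 3 and 6 in 13 of 14 core genes, 11 of 17 regulatory genes and 7792 of all 15841 genes. The median fold between them was 1.59 for core genes, 1.22 for regulatory genes and 0.998 for all genes. In columns 3 and 6, 9 and 11 of the 14 core genes were below all Ctrl libraries, beside 39.8 and 38.9% of all genes. In column 5 none was below and 11 were above, beside 34.9 and 31.2% of all genes. Each CKO library had 12 of the 14 core genes above all Ctrl libraries, beside 30.7 to 32.1% of all genes, and 1 below, Psmb2. Of the 17 regulatory genes, 13, 14 and 12 were above all Ctrl libraries in ONC columns 3, 5 and 6, beside 36.6, 31.2 and 35.4% of all genes. The counts were similar in CKO replicates 1, 2 and 3, at 13, 11 and 12, beside 32.1, 30.7 and 31.8% of all genes. The median coefficient of variation of core genes was 5.33% in Ctrl, 28.7% in ONC and 4.96% in CKO, beside 17.4, 24.2 and 15.5% for all genes.

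**Figure D3:**
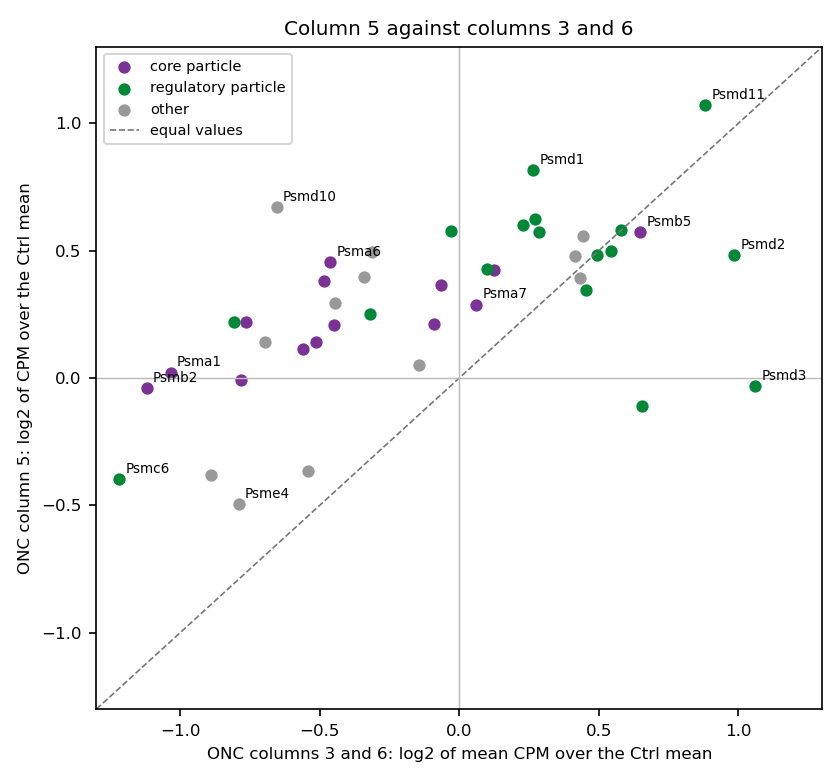
Members in ONC column 5 against the mean of columns 3 and 6, each as log2 over the Ctrl mean, by particle. Core genes lie mostly above the diagonal, with a median fold of 1.59 between the axes.

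Crush against intact nerve (ONC against Ctrl): regulatory particle genes made up most of the calls, with 9 members higher and 2 lower of 43 at an edgeR adjusted p under 0.05. Over all genes, 13.0% were called higher and 12.8% lower, 25.8% together, so the members' count was near that background (11 of 43). Among 17 regulatory genes 7 rose (Psmc3, Psmd1, Psmd2, Psmd4, Psmd7, Psmd11 and Psmd12) and 1 fell (Psmc6). Among 14 core genes, 1 rose (Psmb5), and the difference between particles was not tested. The median log2 fold change was 0.42 for regulatory genes, -0.17 for core genes and -0.039 for all genes. The ONC libraries were all above Ctrl in 14 members and all below in 3, and groups stood apart in 39.5% of all genes (18.3% above, 21.2% below).

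These counts moved when column 5 was left out or stood alone. Without column 5, 16 members were higher and 17 lower, beside 46.4% of all genes called (23.1% higher, 23.3% lower). In that fit 9 core genes were lower (Psma1, Psma2, Psma3, Psma5, Psma6, Psmb1, Psmb2, Psmb6 and Psmb7), Psmb5 was higher, and 12 regulatory genes were higher and 3 lower (Psmc2, Psmc6 and Psmd14). With column 5 as the only ONC library, 14 members were higher and 0 lower, beside 6.62% of all genes (4.2% higher, 2.43% lower), and Psma5, Psma6, Psmb3, Psmb4 and Psmb5 were the core genes among them. That fit takes the spread of the lone library from the other groups. With columns 3 and 6 summed into 1 library, 10 members were higher and 2 lower, beside 11.8% of all genes (7.42% higher, 4.37% lower).

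Base composition and the number of genes without counts moved with the contrast. Of the genes tested, 130 to 159 were at 0 in a Ctrl library, 279, 379 and 258 in columns 3, 5 and 6 of ONC, and 190 to 226 in a CKO library, and their part in the results was not tested. Count-weighted GC content was 47.3 to 47.5% in Ctrl, 49.2, 48.0 and 48.9% in columns 3, 5 and 6 of ONC, then 47.6 to 47.9% in CKO. Across the 43 members, the log2 fold change against GC content had r = 0.54 (Spearman 0.51), and across 14207 genes with a GC value r = 0.32 (Spearman 0.44), given as a description since all points share the same libraries. The 9 members called higher had 46.9 to 56.6% GC (median 51.3%) and the 2 called lower 37.0 and 43.9%. The 32 members not called had 39.4 to 58.3% (median 49.6%), a range that includes all of those called higher. After a correction for GC content and length, 9 members were higher and 3 lower beside 20.5% of all genes (10.3% higher, 10.2% lower), with medians of 0.19 for regulatory and 0.033 for core genes. The 9 called higher were not the same 9 as before, since Psmc3, Psmd4 and Psmd9 were among those that lost their call.

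In the core beta ring, 1 of the 3 catalytic subunits passed the test. Psmb5 measured 146, 147 and 189.6 CPM in the Ctrl libraries, 259, 239 and 244 CPM in crushed wild type (columns 3, 5 and 6), and 213, 252 and 259 CPM in the crushed knockout. All ONC and CKO libraries were above all Ctrl libraries, and column 5 was like columns 3 and 6. Psmb5 (ENSMUSG00000022193, chromosome 14, 54614119 to 54618022, minus strand, GRCm38), the subunit with chymotrypsin-like activity, rose in ONC by a log2 fold change of 0.62 ± 0.14 (SE, edgeR adjusted p = 0.00879), a call kept in 19 of 19 alternative analyses. Psmb6 measured 719, 726 and 770.1 CPM in the Ctrl libraries, 530.1, 799.6 and 471 CPM in crushed wild type (columns 3, 5 and 6), and 789, 831 and 813 CPM in the crushed knockout. Column 5 was above Ctrl and columns 3 and 6 were below it. Psmb6, which has caspase-like activity, differed by -0.30 ± 0.17 (SE, edgeR adjusted p = 0.205). Psmb7 measured 177, 163 and 196 CPM in the Ctrl libraries, 134, 206 and 127 CPM in crushed wild type (columns 3, 5 and 6), and 269, 232 and 233 CPM in the crushed knockout. The ONC columns fell on both sides of Ctrl, while all CKO libraries were above it. Psmb7, with trypsin-like activity, differed by -0.20 ± 0.18 (SE, edgeR adjusted p = 0.438) and shares 11.8% of its exon bases with Nek6 on the other strand.

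The other beta ring genes, Psmb1, Psmb2, Psmb3 and Psmb4, were not called, with log2 fold changes of -0.26, -0.66, 0.093 and 0.23. Psmb2 measured 704, 698 and 762 CPM in the Ctrl libraries, 347, 702 and 316 CPM in crushed wild type (columns 3, 5 and 6), and 614, 639 and 601 CPM in the crushed knockout. Columns 3 and 6 were below all Ctrl libraries and column 5 lay within Ctrl. The log2 fold change of Psmb2 was -0.66 ± 0.24 (SE, edgeR adjusted p = 0.0614). In the alpha ring, whose subunits gate entry to the chamber, no gene was called, and log2 fold changes ran from -0.59 (Psma1) to 0.14 (Psma7). Psma1 measured 389, 366 and 390.1 CPM in the Ctrl libraries, 189.7, 387 and 183 CPM in crushed wild type (columns 3, 5 and 6), and 459, 469 and 419.7 CPM in the crushed knockout. Psma1 in column 5 was at the level of Ctrl, and columns 3 and 6 were far below it. Psma3 measured 911, 925 and 976 CPM in the Ctrl libraries, 533, 933 and 559 CPM in crushed wild type (columns 3, 5 and 6), and 1076, 1119.7 and 1014 CPM in the crushed knockout. Psma3 had the same order, with CKO above every other library. Psma4 measured 162, 176 and 167 CPM in the Ctrl libraries, 162, 195 and 154 CPM in crushed wild type (columns 3, 5 and 6), and 246, 227 and 243 CPM in the crushed knockout. The ONC columns straddled Ctrl, and all CKO libraries were above every other library.

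In the base, 1 of 6 ATPases rose and 1 fell. Psmc3 measured 206, 202 and 192 CPM in the Ctrl libraries, 313, 299 and 284 CPM in crushed wild type (columns 3, 5 and 6), and 318, 296 and 282 CPM in the crushed knockout. Every ONC and CKO library was above every Ctrl library. Psmc3 (ENSMUSG00000002102, chromosome 2, 91054009 to 91066369, plus strand) rose in ONC by 0.58 ± 0.11 (SE, edgeR adjusted p = 0.0047) and shares 8.25% of its exon bases with Slc39a13 on the other strand. After the GC and length correction its log2 fold change was 0.15, with an edgeR adjusted p of 0.294. Psmc6 measured 535, 584 and 581 CPM in the Ctrl libraries, 241, 430.4 and 246 CPM in crushed wild type (columns 3, 5 and 6), and 545, 533 and 469.7 CPM in the crushed knockout. All ONC columns were below all Ctrl libraries, with column 5 between columns 3 and 6 and Ctrl. Psmc6 (ENSMUSG00000021832, chromosome 14, 45329788 to 45349705, plus strand), the ATPase with the lowest GC content of the members, fell in ONC by a log2 fold change of -0.89 ± 0.20 (SE, edgeR adjusted p = 0.00903). With column 5 alone, its log2 fold change was -0.37 (edgeR adjusted p 0.0575), and after the GC and length correction it was -0.34 (edgeR adjusted p 0.0226). The ATPases Psmc1, Psmc2, Psmc4 and Psmc5 were not called, with log2 fold changes of 0.36, -0.10, 0.22 and 0.39.

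Among the members, the 3 base genes that are no ATPases (Psmd1, Psmd2 and Psmd4) all rose. Adrm1 and Uchl5, base genes that are not members, are given with the pathway list below. Psmd2 measured 64.5, 57.5 and 43.2 CPM in the Ctrl libraries, 115, 76.9 and 103 CPM in crushed wild type (columns 3, 5 and 6), and 76.3, 68.1 and 69.7 CPM in the crushed knockout. The ONC libraries lay above all Ctrl libraries, with column 5 the lowest of the 3. Psmd2, a scaffold that binds ubiquitin-like domains, rose by 0.84 ± 0.18 (SE, edgeR adjusted p = 0.00836), and the value with column 5 alone was 0.51 (edgeR adjusted p 0.138). Psmd4 measured 206, 186 and 244 CPM in the Ctrl libraries, 323, 296 and 274 CPM in crushed wild type (columns 3, 5 and 6), and 256, 244 and 245 CPM in the crushed knockout. ONC libraries were again all above Ctrl. Psmd4 (Rpn10), a ubiquitin receptor, rose by 0.49 ± 0.13 (SE, edgeR adjusted p = 0.0175), and the value after GC and length correction was 0.11, with an edgeR adjusted p of 0.471. Psmd1 measured 83.9, 86.2 and 83.4 CPM in the Ctrl libraries, 105, 149 and 98.3 CPM in crushed wild type (columns 3, 5 and 6), and 126, 119 and 126 CPM in the crushed knockout. Column 5 was the highest library, and no ONC or CKO library reached down to Ctrl. Psmd1, the large scaffold of the base, rose by 0.47 ± 0.15 (SE, edgeR adjusted p = 0.0429), a call kept in 15 of 19 alternatives and lost without any single Ctrl library (edgeR adjusted p 0.0685 to 0.083).

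In the lid, 3 of 8 genes rose. Psmd11 measured 87.2, 85.5 and 83.1 CPM in the Ctrl libraries, 161, 179 and 154 CPM in crushed wild type (columns 3, 5 and 6), and 154, 125 and 127 CPM in the crushed knockout. All crushed libraries, ONC and CKO, were above all Ctrl libraries with no overlap. Psmd11 (ENSMUSG00000017428, chromosome 11, 80428615 to 80473248, plus strand), a scaffold of the lid known in human embryonic stem cells to raise proteasome activity, rose by 0.95 ± 0.13 (SE, edgeR adjusted p = 0.00135), the largest log2 rise among the members called in this comparison, kept in 19 of 19 alternatives. Psmd7 measured 122, 119 and 114 CPM in the Ctrl libraries, 176, 168 and 169 CPM in crushed wild type (columns 3, 5 and 6), and 150.5, 159.7 and 139 CPM in the crushed knockout. The groups did not overlap, and the 3 ONC columns were close together. Psmd7, the partner of the lid deubiquitinase, rose by 0.53 ± 0.11 (SE, edgeR adjusted p = 0.00751), kept in 19 of 19. Psmd12 measured 124, 128 and 107 CPM in the Ctrl libraries, 169, 152 and 159 CPM in crushed wild type (columns 3, 5 and 6), and 120.0, 122 and 121 CPM in the crushed knockout. ONC was above both other groups, and CKO lay within the range of Ctrl. Psmd12, a scaffold subunit, rose by 0.42 ± 0.12 (SE, edgeR adjusted p = 0.0226), with an edgeR adjusted p of 0.106 when column 5 stood alone, 0.0639 without column 3 and 0.0625 without Ctrl replicate 3.

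The lid deubiquitinase did not pass the test. Psmd14 measured 194, 200.2 and 229 CPM in the Ctrl libraries, 118, 242 and 119 CPM in crushed wild type (columns 3, 5 and 6), and 229, 265 and 217 CPM in the crushed knockout. Columns 3 and 6 were below all Ctrl libraries and column 5 was above them. Psmd14 (Rpn11), which cuts the ubiquitin chain from substrates, differed by -0.38 ± 0.24 (SE, edgeR adjusted p = 0.26). Psmd8 measured 188, 205 and 227 CPM in the Ctrl libraries, 263, 319 and 235 CPM in crushed wild type (columns 3, 5 and 6), and 330.3, 299 and 288 CPM in the crushed knockout. The ONC and CKO libraries were all above Ctrl. Psmd8, a lid scaffold subunit, missed the threshold in ONC at 0.40 ± 0.14 (SE, edgeR adjusted p = 0.0526). Psmd3, Psmd6 and Psmd13 were not called either, with log2 fold changes of 0.77, 0.20 and 0.45. Psmd13 shares 10.1% of its exon bases with Sirt3 on the other strand.

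**Figure D4:**
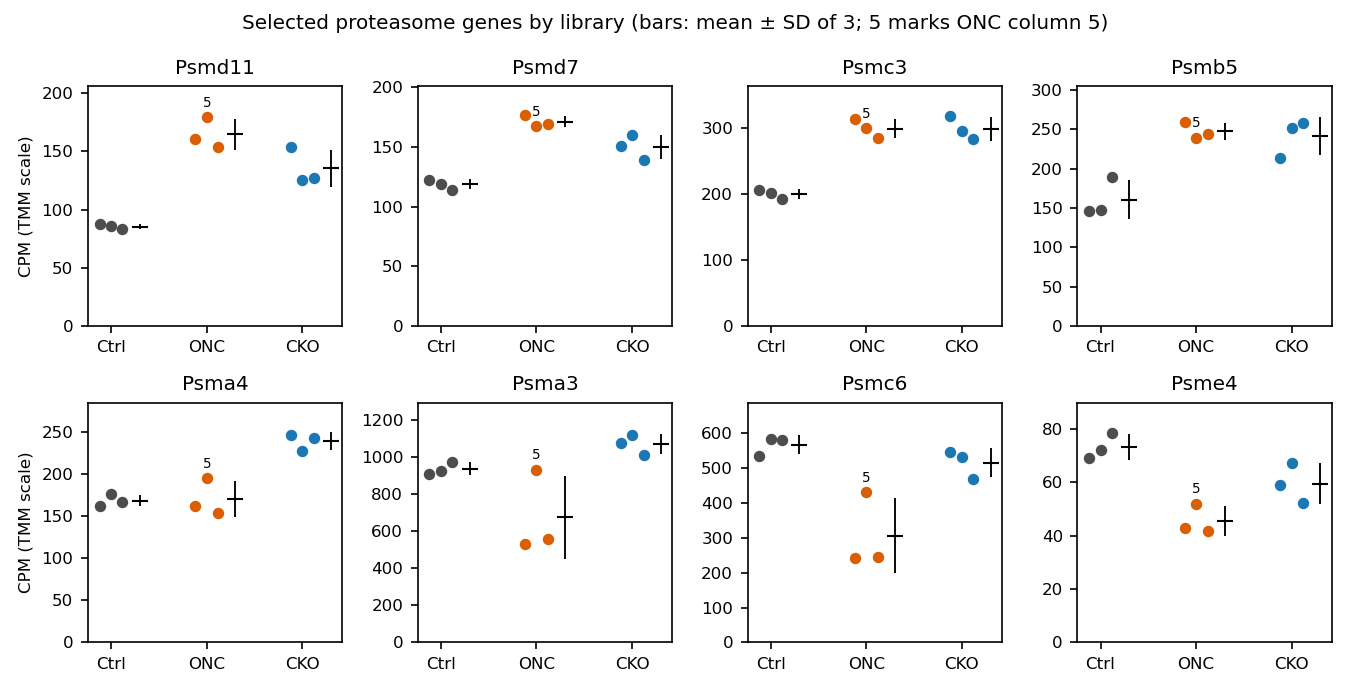
CPM of selected members in each of the 9 libraries, with group mean and SD (n = 3). Psmd11 and Psmc3 are higher in every crushed library than in every Ctrl library, while Psmc6 is lower in every ONC column.

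Of the chaperones, activators and inhibitor, 1 gene rose and 1 fell. Psmd9 measured 51.4, 44.2 and 50.8 CPM in the Ctrl libraries, 65.1, 64.1 and 66.8 CPM in crushed wild type (columns 3, 5 and 6), and 60.5, 56.1 and 65.2 CPM in the crushed knockout. ONC was above Ctrl without overlap. Psmd9, a chaperone of base assembly, rose by 0.42 ± 0.13 (SE, edgeR adjusted p = 0.0305), kept in 12 of 19 alternatives. Its adjusted p by edgeR was 0.0658 without column 3, 0.0784 without column 6 and 0.0729 without Ctrl replicate 2. With the GC and length correction its log2 fold change was 0.10 (edgeR adjusted p 0.56), and 25.5% of its exon bases lie under Gm26745 on the other strand. Psme4 measured 69.1, 72.2 and 78.4 CPM in the Ctrl libraries, 42.8, 51.9 and 41.8 CPM in crushed wild type (columns 3, 5 and 6), and 59, 67.4 and 52.1 CPM in the crushed knockout. All ONC libraries lay below all Ctrl libraries. Psme4, an activator that opens the core particle without ATP, fell by a log2 fold change of -0.69 ± 0.15 (SE, edgeR adjusted p = 0.00772), and the value with column 5 alone was -0.47 (edgeR adjusted p 0.135). Psme3 measured 21.9, 26.3 and 25.6 CPM in the Ctrl libraries, 33.8, 36.3 and 33.1 CPM in crushed wild type (columns 3, 5 and 6), and 23, 28.7 and 31.7 CPM in the crushed knockout. ONC was above Ctrl without overlap, but Psme3, the nuclear activator, was at 0.48 ± 0.17 (SE, edgeR adjusted p = 0.0502). Psmg4 measured 36.3, 39.5 and 54.6 CPM in the Ctrl libraries, 30.7, 33.8 and 29 CPM in crushed wild type (columns 3, 5 and 6), and 34.4, 40.9 and 33.1 CPM in the crushed knockout. Psmg4, a core assembly chaperone, was at -0.48 ± 0.18 (SE, edgeR adjusted p = 0.0653) with groups apart. Psmg1, Psmg2, Psmg3, Psmd5 and Psmd10 were not called, with log2 fold changes of -0.077, -0.15, 0.44, -0.36 and -0.068.

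The inhibitor and the remaining members overlapped between ONC and Ctrl. Psmf1 measured 64.8, 84.2 and 70.2 CPM in the Ctrl libraries, 61.3, 103 and 56.3 CPM in crushed wild type (columns 3, 5 and 6), and 89.9, 75.7 and 85.2 CPM in the crushed knockout. Column 5 was high and columns 3 and 6 low. Psmf1, an inhibitor of the core particle, differed by 0.0087 ± 0.21 (SE, edgeR adjusted p = 0.982). Psmc3ip measured 39.2, 48.8 and 44.7 CPM in the Ctrl libraries, 32.6, 58.2 and 37.1 CPM in crushed wild type (columns 3, 5 and 6), and 49.5, 54.8 and 52.4 CPM in the crushed knockout. Psmc3ip overlapped between Ctrl and ONC and shares 21.2% of its exon bases with Mlx. Psmb11 measured 2.59, 1.47 and 1.34 CPM in the Ctrl libraries, 0.526, 1.38 and 1.42 CPM in crushed wild type (columns 3, 5 and 6), and 0.871, 1.33 and 1.04 CPM in the crushed knockout. Psmb11 was low in every library.

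Crushed knockout against intact wild type (CKO against Ctrl): 6 members rose, from both particles, in a contrast where crush and genotype differ at once. The test called 6 members higher (Psma4, Psmb5, Psmc3, Psmd1, Psmd8 and Psmd11) and 0 lower, beside 8.89% of all genes called, 4.32% higher and 4.58% lower. Of 43 members, 37 had a log2 fold change above 0, with a median of 0.20 beside -0.012 for all genes. CKO was entirely above Ctrl in 25 members and below in 3, while groups stood apart in 35.7% of all genes, 17.2% above and 18.5% below. Among core genes, 12 of 14 were entirely above Ctrl and Psmb2 entirely below.

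The log2 fold changes of the members called, whose levels are above, were close in size. Psmd11 rose by 0.67 ± 0.13 (SE, edgeR adjusted p = 0.00878) and Psmc3 by 0.58 ± 0.11 (SE, adjusted p = 0.00842), both kept in 21 of 21 alternatives. Psmb5 rose by 0.59 ± 0.14 (SE, edgeR adjusted p = 0.0226), kept in 17 of 21, and Psmd8 by 0.56 ± 0.14 (SE, adjusted p = 0.0271), kept in 15 of 21. Psma4, an alpha ring gene, rose by 0.51 ± 0.12 (SE, edgeR adjusted p = 0.0259), kept in 15 of 21, and Psmd1 by 0.55 ± 0.15 (SE, adjusted p = 0.0488), kept in 14 of 21. Leaving out any single Ctrl or CKO library ended the calls of Psma4 and Psmd1. Psmd8 lost its call without any single CKO library or without Ctrl replicate 1 or 2, and after the GC and length correction. Psmb5 lost its call without Ctrl replicate 1 or 2 or CKO replicate 2 or 3. When only the Ctrl and CKO libraries were fitted, without the spread among the ONC columns, 18 members were higher and 1 lower (Psmb2), beside 19.4% of all genes (10.5% higher, 8.98% lower). The 18 were Psma1 to Psma6, Psmb3, Psmb4, Psmb5, Psmb7, Psmc1, Psmc3, Psmc5, Psmd1, Psmd6, Psmd7, Psmd8 and Psmd11. With the replicate number as a block, 14 were higher and 0 lower, beside 17.7% of all genes (9.58% higher, 8.12% lower). Without ONC column 5, 19 were higher and 1 lower, beside 21.4% of all genes (11.8% higher, 9.6% lower). With column 5 as the only ONC library, 18 were higher and 1 lower, beside 16.4% (9.07% higher, 7.35% lower). After the GC and length correction, 9 were higher and 0 lower, beside 11.2% (5.6% higher, 5.61% lower).

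Crushed knockout against crushed wild type (CKO against ONC): no member was called, and the core genes' values depended on the ONC columns used. edgeR called 0 of 43, beside 0.865% of all genes (0.587% higher, 0.278% lower), with 16 members at an unadjusted p under 0.05, as were 4314 of all 15841 genes. DESeq2 called 5 higher (Psma1, Psma3, Psma4, Psmb7 and Psmc6) and 1 lower (Psmd12), beside 14.3% of all genes (7.5% higher, 6.77% lower). The median log2 fold change was 0.44 for core and -0.00058 for regulatory genes, and -0.016 for all genes. For core genes it was 0.23 after the GC and length correction and 0.0081 with column 5 alone, where 8 core genes were above 0 and 6 below. CKO was entirely above ONC in 6 members (Psma1, Psma3, Psma4, Psmb7, Psmc6 and Psme4) and entirely below in 6 (Psmd2, Psmd4, Psmd7, Psmd12, Psme3 and Psmg3), while groups stood apart in 26.2% of all genes (13.6% above, 12.6% below). Psmc6 differed by 0.75 ± 0.20 (SE, edgeR adjusted p = 0.0639), Psma1 by 0.83 ± 0.24 (SE, adjusted p = 0.0743), and Psmd12 by -0.40 ± 0.12 (SE, adjusted p = 0.0747).

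This comparison rested on which ONC columns were used. Without column 5, 21 members were higher in CKO and 6 lower (Psmd2, Psmd3, Psmd4, Psmd7, Psmd12 and Psmd13), beside 36.7% of all genes (18.6% higher, 18.1% lower), with 11 of 14 core genes higher and none lower. With column 5 as the only ONC library, 0 members were called in edgeR, beside 0.0512% of all genes (0.0284% higher, 0.0227% lower), 6 were at an unadjusted p under 0.05, and the members' median was -0.087. With columns 3 and 6 summed, edgeR called 0 members, beside 0.0122% of all genes (0.00608% in each direction). The 3 comparisons share libraries, since each group enters 2 of them.

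**Figure D5:**
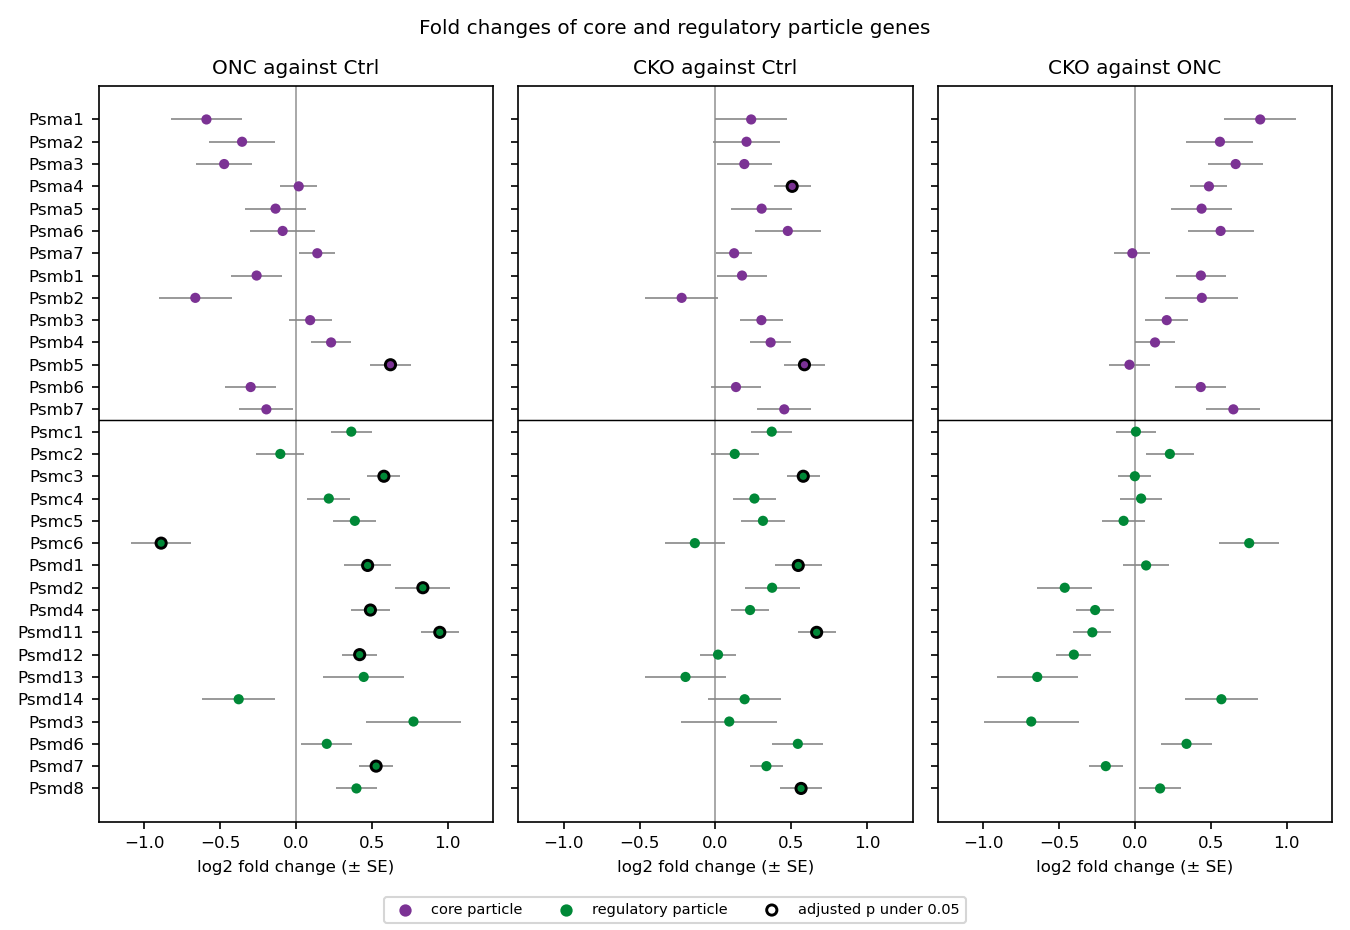
Log2 fold change with SE of the 31 core and regulatory particle genes in each of the 3 comparisons; points ringed in black are called at an edgeR adjusted p under 0.05. In ONC against Ctrl, Psmc6 is lowest at -0.89 and Psmd11 highest at 0.95.

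A list held 30 further genes of the ubiquitin-proteasome pathway, of which 29 were tested and Paaf1 was not analysed here. In ONC against Ctrl, 7 rose and 3 fell, beside 25.8% of all genes called (13.0% higher, 12.8% lower), with a median log2 fold change of 0.18. Adrm1, the ubiquitin receptor Rpn13 of the base, rose by 1.06 ± 0.17 (SE, edgeR adjusted p = 0.00247). The segregase Vcp rose by 1.02 ± 0.16, with its cofactor Nploc4 at 0.94 ± 0.31. The other segregase cofactors of the list, Ufd1 and Nsfl1c, overlapped between ONC and Ctrl and were not called, at 0.13 ± 0.17 (SE, edgeR adjusted p = 0.61) and 0.32 ± 0.15 (SE, adjusted p = 0.127). Uchl5, a deubiquitinase of the base, fell by a log2 fold change of -0.80 ± 0.22, Ecpas, a proteasome-binding protein, by -0.62 ± 0.13, and the ubiquitin-activating enzyme Uba6 by -0.66 ± 0.17. Nploc4, Uchl5 and Uba6 each lost their call without column 3 or column 6, or without Ctrl replicate 3 (edgeR adjusted p 0.0533 to 0.122). Uchl5 and Uba6 lost it also without Ctrl replicate 1, Nploc4 and Uba6 without Ctrl replicate 2, and Nploc4 without CKO replicate 3 (edgeR adjusted p 0.0502 to 0.128). With column 5 alone, Nploc4 was at 0.72 and Uchl5 at -0.28 (edgeR adjusted p 0.328 and 0.237). After the GC and length correction, Uba6 was at -0.059 (edgeR adjusted p 0.779).

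Of the list's 3 genes of control by Nfe2l1, Nfe2l1 and Ddi2 rose, with the high values in columns 3 and 6. Nfe2l1 measured 17.5, 14.4 and 14.4 CPM in the Ctrl libraries, 41.9, 16.7 and 42.5 CPM in crushed wild type (columns 3, 5 and 6), and 16.5, 16.1 and 15.6 CPM in the crushed knockout. Column 5 was within the range of Ctrl, as was CKO. Nfe2l1 had a log2 fold change of 1.13 ± 0.30 (SE, edgeR adjusted p = 0.0179), kept in 13 of 19 alternatives. It lost its call without column 3, column 6, Ctrl replicate 2 or Ctrl replicate 3 (edgeR adjusted p 0.0559 to 0.0693), and with column 5 alone it was at 0.14 (edgeR adjusted p 0.788). Ddi2 measured 25.9, 21.2 and 19.97 CPM in the Ctrl libraries, 47.6, 25.1 and 47.4 CPM in crushed wild type (columns 3, 5 and 6), and 26.5, 30.9 and 29 CPM in the crushed knockout. Ddi2, the protease that activates Nfe2l1, was likewise within the Ctrl range in column 5, lay above Ctrl in every CKO library, and had a log2 fold change of 0.84 ± 0.23 (SE, edgeR adjusted p = 0.0222), kept in 12 of 19, with calls lost without the same libraries (edgeR adjusted p 0.0628 to 0.0818) and a log2 fold change of 0.19 with column 5 alone (edgeR adjusted p 0.662). Ngly1 measured 54, 70.4 and 62.6 CPM in the Ctrl libraries, 49.2, 71.6 and 47.6 CPM in crushed wild type (columns 3, 5 and 6), and 78.8, 75.8 and 73.7 CPM in the crushed knockout. Ngly1, the glycanase that processes Nfe2l1, was below all Ctrl libraries in columns 3 and 6, above them in column 5 and not called, at -0.15 ± 0.17 (SE, edgeR adjusted p = 0.542). In CKO against Ctrl, 3 of the 29 genes of the list rose and 1 fell, beside 8.89% of all genes called (4.32% higher, 4.58% lower). Among them, Adrm1 rose by 0.71 ± 0.17 and Ecpas fell by a log2 fold change of -0.53 ± 0.13. Ecpas lost that call without any single Ctrl or CKO library or without ONC column 6 (edgeR adjusted p 0.0623 to 0.148), and Adrm1 without Ctrl replicate 1 or 3 or CKO replicate 1 or 3 (edgeR adjusted p 0.0815 to 0.109). In CKO against ONC, edgeR called 0 of the 29, beside 0.865% of all genes. Its unadjusted p was under 0.05 for 11 of the 29 and for 4314 of all 15841 genes. Of the 5 immunoproteasome genes, Psmb8 alone was called in ONC against Ctrl and in CKO against Ctrl, beside 25.8 and 8.89% of all genes. Psmb8 measured 0.0923, 1.33 and 1.54 CPM in the Ctrl libraries, 9.07, 8.24 and 8.3 CPM in crushed wild type (columns 3, 5 and 6), and 9.58, 8.34 and 3.87 CPM in the crushed knockout. Psmb8, which replaces Psmb5 in immune cells, rose by 3.11 ± 0.64 (SE, edgeR adjusted p = 0.00688) in ONC and by 2.88 ± 0.64 (SE, adjusted p = 0.018) in CKO against Ctrl, from low levels in every Ctrl library. The CKO call of Psmb8 was lost without CKO replicate 1 or 2 (edgeR adjusted p 0.074 and 0.0586).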

How the data were processed

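Per the labels' protocols, cDNA of sorted cells came from the Discover-sc WTA Kit V2 and was made into libraries by the TruePrep DNA Library Prep Kit V2. Although these are termed stranded in the labels, this tagmentation kit does not mark strand, and overlapping genes on opposite strands cannot be told apart. Reads were trimmed with Trimmomatic 0.36 and the builds GRCm38 and mm10 were named, per the submitters' processing notes; aligner, counting tool and annotation are not given in the sources used here. The deposited table holds expected counts, not normalized, per the file headers, of which 68.3 to 73.1% were whole in a library. It also holds FPKM values, scaled by the authors to gene length and depth, per the file headers, used here only for levels in Ctrl and CKO. Of 18 value columns, 3 (the ONC FPKM columns) were not used.

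Symbols, positions, transcript lengths and GC content came from GENCODE M21 on GRCm38. Expected counts were rounded, filtered with filterByExpr by group and scaled by TMM, and all 9 libraries were fitted together with edgeR 4.0.16 (R 4.3.3, limma 3.58.1) by its quasi-likelihood test, without covariates. Calls were at a Benjamini-Hochberg adjusted p under 0.05 over 15841 genes, and every adjusted p is from edgeR unless another tool is named. SE was the absolute log2 fold change divided by the square root of F. Precision rests on 3 libraries a group, and counting limits cover counting error only, since no molecular identifiers were used. The code was tested on simulated data. Other analyses used DESeq2 1.42.0, other scalings and filters (50 counts in 3 libraries), a loess correction for GC and length (span 0.3), each library left out, columns 3 and 6 summed or column 5 alone, only 2 groups fitted, and a replicate block. Members given in every library were those called (up to 12 a comparison), the catalytic subunits, Psmd4, Psmd14, the activators, Psmf1 and, for a role without a call, its member with the largest change; Psma1, Psma3 and Psmb2 were added after their values were seen. Members and lists were chosen with earlier results of these data known. The values of some genes of the pathway list are not reported here.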

Additional observations from a re-analysis of the deposited data

How the results depend on the processing

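No call of a member changed direction under the alternatives run. Members without a call did: in ONC against Ctrl, with column 5 alone, Psmb6, Psmb7 and Psmd14 were at 0.14, 0.23 and 0.25 (log2), against -0.30, -0.20 and -0.38 with all columns, and 13 of 14 core genes were above 0, against 5 with all columns. In ONC against Ctrl, where 11 members were called, library totals without TMM gave 18 (14 higher, 4 lower), beside 2237 genes higher and 2060 lower of all 15841, and DESeq2 gave 17 (14 higher, 3 lower), beside 32.6% of all genes. Leaving out 1 library gave 9 to 33 called. In CKO against ONC, where 0 were called by edgeR, library totals gave 1 (lower), beside 210 genes higher and 286 lower of all 15841, DESeq2 6, beside 14.3% of all genes, and no filter 4 (higher), beside 425 genes higher and 365 lower of 23733. Leaving out 1 library gave 0 to 27, the highest without ONC column 5. In CKO against Ctrl, where 6 were called, column 5 as the only ONC library gave 19 and the fit of the 2 groups alone 19. Leaving out 1 library gave 2 to 20, the lowest without Ctrl replicate 1 or 2 or CKO replicate 2 or 3 and the highest without ONC column 5. With the replicate block, the count was 14, beside 17.7% of all genes, and 13 with the block and the GC and length correction. The share of all genes is not given here for that count of 13. Nor is it given for the low ends of the ranges with 1 library left out, so these counts cannot be set beside the background. The replicate numbers did not pair the samples: deviations of same-numbered Ctrl and CKO libraries correlated at 0.0021, 0.015 and 0.0083. No paired analysis was possible for the ONC comparisons because the ONC columns carry other numbers than the labels. Scaling by library totals moved the median of all genes to -0.13 (log2) in CKO against ONC, and dropping the filter moved it to -0.20 in ONC against Ctrl. The cause of these differences was not tested. With 3 libraries a group, and an ONC group in which 1 column stands apart, calls of small changes depend on which library enters.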
